A study of Mus musculus with 6 samples.

Results

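Integrins outside hemidesmosomes were described as 10 of the 49671 genes listed in the deposited table, matched by gene symbol: Itga1, Itga2, Itga3, Itga5, Itgav, Itgb1, Itgb3, Itgb5, Itgb6 and Itgb8. These genes, and the gene lists below, were chosen with earlier results of these data known. Their percentages of called genes, set against all genes tested, are therefore descriptions and not tests of an excess. The RNA came from LKPR EPCAM+ cells, a line of sorted epithelial cells from mouse skin squamous cell carcinoma, and was sequenced in bulk. The 3 groups had 2 libraries each and carried an empty vector, a knock-down of Ntn1 (KD Ntn1), the gene of the secreted guidance cue netrin-1, or of Unc5b (KD Unc5b), the gene of a receptor for netrins. All groups came from tumours with Lgr5CreER, an inducible Cre expressed from Lgr5 that acts on alleles including p53fl/fl, from which it removes p53, and Rosa26-YFP+/+, from which it turns on YFP. All had also been transduced with lentivirus and tested for puromycin resistance. The knock-down constructs were in pLKO.1-puro and the empty vector was TRC1, and the libraries were made after 6 days of culture from live sorted cells positive for YFP and EPCAM. Whether replicate libraries are from separate cultures or clones, and which hairpins were used, is not stated in the labels. The p-values therefore cover only the spread among these libraries, possibly a technical one. With 2 libraries on each side, the smallest p of an exact permutation test is 0.333.

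Integrins are receptors made of an α and a β subunit that cross the plasma membrane, bind the extracellular matrix or other cells outside and connect to the actin cytoskeleton inside. In skin epithelium α2β1 binds collagens, α3β1 binds laminins, and α6β4, the integrin of hemidesmosomes, anchors keratinocytes to the basement membrane through keratins. The fibronectin receptor α5β1 and αvβ6 are low in resting epidermis and are known to rise in wounds and in carcinomas.

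Levels are the deposited values, in which each library is scaled to 20 M reads. One read was worth 1.97 to 3.06 units, which gives 6.54 to 10.18 M reads per library, and a floor of 3 reads lay at 5.90 to 9.17 units, for counting error only. The targeted genes were lower in their own group, Ntn1 by 5.26-fold in KD Ntn1 (limma, adjusted p = 0.00162) and Unc5b by 4.02-fold in KD Unc5b (limma, adjusted p = 0.000252). In the other knock-down, Ntn1 was at 1319 and 771 in KD Unc5b against 1566 and 2588 in the empty vector and did not pass (limma, adjusted p = 0.0638), and Unc5b was 1.51-fold higher in KD Ntn1 (limma, adjusted p = 0.0193). All 8 epithelial markers were detected. Their summed levels were 48683 to 49489 in the empty vector, 60193 to 63390 in KD Ntn1 and 48951 to 53257 in KD Unc5b. In KD Ntn1 2 of the 8 were called higher and 1 lower, 37.5% against 15.1% of all genes tested. In KD Unc5b 1 was called higher and 0 lower, 12.5% against 12%. Krt5 was at 287 and 320 in the empty vector, 1034 and 1027 in KD Ntn1 and 697 and 776 in KD Unc5b. Cldn7 was at 1386 and 1297 in KD Ntn1, against 1908 and 1822 in the empty vector. Summed levels of 8 fibroblast markers were 128 in both empty vector libraries, 183 to 290 in KD Ntn1 and 137 to 216 in KD Unc5b, with Dpt at 0. The 8 immune markers summed to 1298 to 1540, 456 to 568 and 1098 to 1658 in the same order, mostly from Csf1r, with Adgre1 at 0. Cd68, the other immune marker tested, was at 81 and 25, 107 and 122, and 83 and 90, and so did not follow the lower sum in KD Ntn1. The 8 endothelial markers summed to 101 to 108, 192 to 238 and 100 to 104, and Cdh5, one of them, was at 86 and 113 in KD Ntn1 and at most 2 elsewhere, while Emcn was at 0. The part of these other markers in the integrin values was not tested.

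Of the 10 integrin genes, 9 reached a mean of 20 over the 6 libraries and were tested, and Itgb8 did not. In KD Ntn1 5 of the 9 rose (Itga1, Itga2, Itga3, Itga5 and Itgb3) and Itgb5 fell, where 15.1% of all 15330 genes tested were called, 8.04% higher and 7.06% lower. In KD Unc5b 4 rose (Itga1, Itga2, Itga5 and Itgb3), where 12% of all genes tested were called, 5.9% higher and 6.07% lower. Between the knock-downs 2 genes differed (Itga2 and Itga5), both higher in KD Ntn1, where 7.1% of genes tested were called, 4.15% higher and 2.95% lower. Itgb3 reached the mean of 20 only through the knock-downs, in which it was high, so its place among the tested genes depended on its difference. Fewer cells expressing a gene and less RNA per cell cannot be told apart in these bulk libraries. Both comparisons with the empty vector used the same 2 empty vector libraries, so a direction that they share is not independent support.

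The promoters of the genes that rose in both knock-downs and have a RefSeq window (Itga1, Itga2 and Itga5), and of Itgb5, which fell in KD Ntn1, are shown because these genes moved together or against each other. Each window runs from 250 bases before to 50 after the annotated start in RefSeq's annotation of GRCm38.p6, 5′ to 3′ on the gene's own strand. Capitals mark the letters GGGCGG on either strand, the core of a GC box that SP factors are known to bind. The windows are chr13:115101915-115102214 on the minus strand for Itga1, chr13:114932051-114932350 on the minus strand for Itga2, chr15:103366742-103367041 on the minus strand for Itga5 and chr16:33829415-33829714 on the plus strand for Itgb5.
Itga1: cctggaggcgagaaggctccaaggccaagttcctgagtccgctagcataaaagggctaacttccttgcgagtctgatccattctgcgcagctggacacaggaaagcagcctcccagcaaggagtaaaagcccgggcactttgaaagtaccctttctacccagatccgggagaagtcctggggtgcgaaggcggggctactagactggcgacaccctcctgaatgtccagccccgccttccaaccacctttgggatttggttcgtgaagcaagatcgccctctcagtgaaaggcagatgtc
Itga2: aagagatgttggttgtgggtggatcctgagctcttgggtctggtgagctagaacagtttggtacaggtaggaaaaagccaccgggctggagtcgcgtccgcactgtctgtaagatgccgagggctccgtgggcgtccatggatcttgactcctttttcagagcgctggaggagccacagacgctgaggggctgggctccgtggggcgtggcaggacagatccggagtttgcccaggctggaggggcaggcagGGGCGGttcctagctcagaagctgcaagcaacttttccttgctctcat
Itga5: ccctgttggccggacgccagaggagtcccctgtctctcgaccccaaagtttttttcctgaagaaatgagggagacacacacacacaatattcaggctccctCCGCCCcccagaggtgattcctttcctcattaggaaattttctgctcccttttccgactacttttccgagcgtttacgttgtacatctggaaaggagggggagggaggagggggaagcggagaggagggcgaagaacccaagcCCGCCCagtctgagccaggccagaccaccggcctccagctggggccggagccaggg
Itgb5: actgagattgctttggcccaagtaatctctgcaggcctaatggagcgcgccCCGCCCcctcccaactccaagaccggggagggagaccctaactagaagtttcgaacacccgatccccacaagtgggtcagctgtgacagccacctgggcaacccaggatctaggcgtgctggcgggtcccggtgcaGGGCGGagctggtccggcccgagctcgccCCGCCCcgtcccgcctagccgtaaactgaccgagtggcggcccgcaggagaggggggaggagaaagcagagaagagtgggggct
The GGGCGG letters occurred 0 times in the Itga1 window, 1 time in that of Itga2, 2 times in that of Itga5 and 3 times in that of Itgb5, so they stood both in genes that rose (Itga2 and Itga5) and in the gene that fell. RefSeq gave 11 windows for 9 of the 10 integrin genes, and 7 of the 11 held GGGCGG against 35.7% of all 32851 windows of the same length. CG dinucleotides numbered 5 and 24 in the windows of Itga3, 3 and 12 in those of Itgb6 and 12 to 27 in the rest. The median over all windows was 7, so the windows differed in base composition, for which no allowance was made. The AP-1 letters TGANTCA, searched on both strands, were in 1 of the 11 windows, a second start of Itga3, against 7.81% of all windows. The TEAD letters GGAATG were in 1 of the 11, that of Itgb1, against 14.7% of all windows. In the windows of the integrin genes no match of one motif overlapped that of another, and a match describes letters in the window only.

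**Figure D1:**
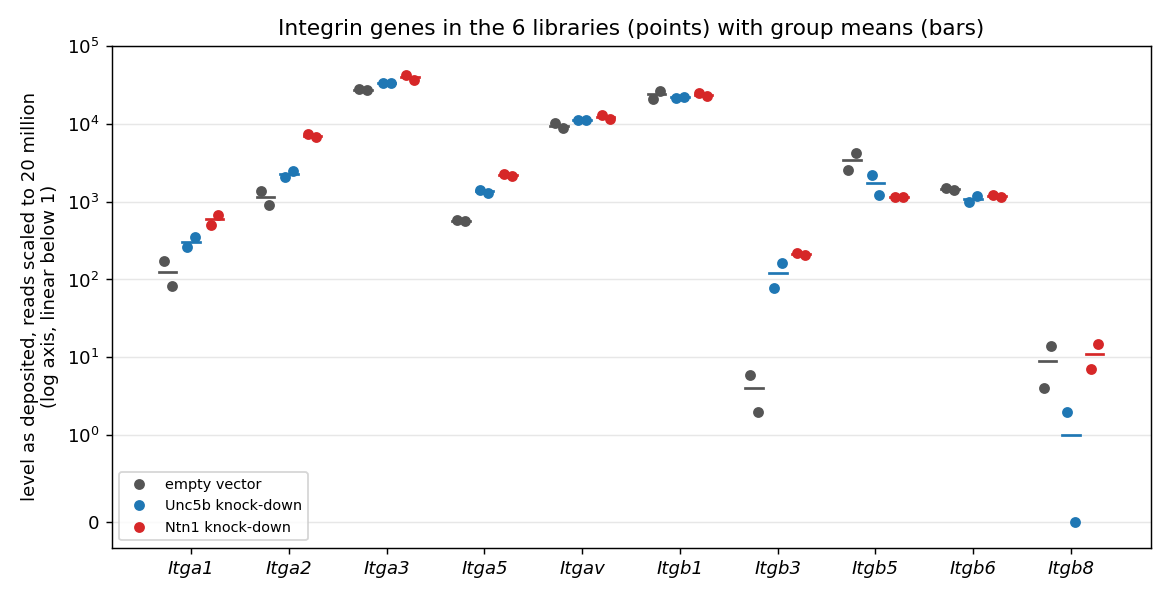
Level of each integrin gene in the 6 libraries (points) with the group means (bars), on a log axis that is linear below 1, in deposited units scaled to 20 M reads. Itga2 lay at 912 to 1372 in the empty vector, 2050 to 2455 in KD Unc5b and 6678 to 7381 in KD Ntn1, while the Itgb1 libraries of the 3 groups overlapped.

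Itga2 and Itga1, which encode α subunits of collagen receptors, passed the test in both knock-downs. Itga2 (ENSMUSG00000015533, GRCm38 chromosome 13, 114833081 to 114932100, minus strand), which encodes the α subunit of α2β1, was at 1372 and 912 in empty vector libraries, 7381 and 6678 in KD Ntn1 and 2050 and 2455 in KD Unc5b. The 3 groups did not overlap, and both KD Ntn1 libraries stood far above the rest. The group means were 1142 ± 325.3 in the empty vector, 7029.5 ± 497.1 in KD Ntn1 and 2252.5 ± 286.4 in KD Unc5b (SD, n = 2). Itga2 was 6.16-fold higher in KD Ntn1 than in the empty vector (log2 fold change 2.64 ± 0.19 SE, limma adjusted p = 0.000203), a call kept in all 15 alternatives. In KD Unc5b it was 1.97-fold higher (log2 fold change 1.00 ± 0.19 SE, limma adjusted p = 0.0127). The direct comparison placed KD Ntn1 3.12-fold above KD Unc5b (log2 difference 1.64 ± 0.19 SE, limma adjusted p = 0.003). The KD Unc5b call was lost without KD Unc5b library 2 (adjusted p = 0.102), with no filter (0.0818) and with no variance trend (0.0648), and the direct call without KD Ntn1 library 1 (0.0761) or 2 (0.0638).

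Itga1 (ENSMUSG00000042284, chromosome 13, 114953096 to 115101964, minus strand), which encodes the α subunit of the collagen receptor α1β1, lies 20995 bases from Itga2 on the same strand. It was at 171 and 82 in empty vector cells, 504 and 676 in KD Ntn1 and 263 and 350 in KD Unc5b. The groups did not overlap, and the empty vector libraries lay 2.09-fold apart. Its level was 4.66-fold higher in KD Ntn1 (log2 fold change 2.25 ± 0.33 SE, limma adjusted p = 0.00348) and 2.42-fold higher in KD Unc5b (log2 fold change 1.32 ± 0.33 SE, limma adjusted p = 0.0375). The knock-downs did not differ by the test (log2 difference 0.93, 95% interval 0.17 to 1.69, adjusted p = 0.14), although they passed it without empty vector library 1 (0.0267) or 2 (0.0213) and in a fit of the compared groups only (0.0178). The KD Ntn1 call was lost without KD Ntn1 library 2 (0.0587). The KD Unc5b call was lost without empty vector library 2 (0.0845), KD Ntn1 library 1 (0.0813) or 2 (0.0842), or KD Unc5b library 1 (0.0847) or 2 (0.218), and with no filter (0.151), no variance trend (0.101), the compared groups only (0.0861) or the replicate numbers as a block (0.0844). Exons of Itga1 share 685 bases with Gm49395 on the same strand.

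The fibronectin receptor subunit Itga5 (ENSMUSG00000000555, chromosome 15, 103344286 to 103366763, minus strand) was at 574 and 558 in empty vector cells, 2242 and 2137 in KD Ntn1 and 1406 and 1299 in KD Unc5b. The 3 groups were well apart, and the libraries of a group lay within 1.08-fold of each other. Itga5 rose 3.87-fold in KD Ntn1 (log2 fold change 1.94 ± 0.12 SE, limma adjusted p = 0.000125) and 2.39-fold in KD Unc5b (log2 fold change 1.25 ± 0.12 SE, limma adjusted p = 0.000658). These calls were kept in all 15 alternatives. KD Ntn1 was 1.62-fold above KD Unc5b (log2 difference 0.69 ± 0.12 SE, limma adjusted p = 0.0137). That difference was lost without KD Ntn1 library 1 (0.202) or 2 (0.161), without KD Unc5b library 1 (0.06) or 2 (0.0936), and with no variance trend (0.0605). Its ligand gene Fn1, which encodes fibronectin and was picked out after its values were seen, was at 14154 and 29839 in empty vector cells, 32409 and 33202 in KD Ntn1 and 54200 and 36578 in KD Unc5b. Fn1 passed no test (limma adjusted p = 0.191 in KD Ntn1 and 0.0548 in KD Unc5b), and its empty vector libraries were far apart.

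Itga3 (ENSMUSG00000001507, chromosome 11, 95044474 to 95076801, minus strand), the α subunit of the laminin receptor α3β1, was at 28097 and 26995 in empty vector cells, 42462 and 36984 in KD Ntn1 and 33398 and 33240 in KD Unc5b. The groups did not overlap, and the steps between them were small. It rose 1.44-fold in KD Ntn1 (log2 fold change 0.52 ± 0.11 SE, limma adjusted p = 0.0155). KD Unc5b did not pass (log2 fold change 0.27, 95% interval 0.02 to 0.53, adjusted p = 0.153), nor did the knock-downs against each other (0.25, adjusted p = 0.223). The KD Ntn1 call was lost without KD Ntn1 library 1 (0.175) or 2 (0.0718), with no filter (0.0643) and with no variance trend (0.0758).

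Itgav (ENSMUSG00000027087, chromosome 2, 83724397 to 83806916, plus strand) encodes αv, the partner of β1, β3, β5, β6 and β8. It was at 10209 and 8792 in empty vector cells, 12945 and 11669 in KD Ntn1 and 11118 and 11095 in KD Unc5b. Every library of a knock-down was above both empty vector libraries. The difference did not pass the test in KD Ntn1 (log2 fold change 0.38, 95% interval 0.11 to 0.64, limma adjusted p = 0.0621) or in KD Unc5b (0.23, 95% interval -0.03 to 0.49, adjusted p = 0.244). It passed in KD Ntn1 without empty vector library 1 (adjusted p = 0.0248) and with quantile normalization (0.0467). The knock-downs differed by a log2 value of 0.15 (95% interval -0.12 to 0.41, adjusted p = 0.499). Exons of Itgav overlap Gm13684 on the other strand by 634 bases, and Gm13684 was at 71 to 138 in all libraries.

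The common β subunit did not change by the test. Itgb1 (ENSMUSG00000025809, chromosome 8, 128685654 to 128733200, plus strand), which pairs with α1, α2, α3, α5 and αv among others, was at 21109 and 26595 in empty vector cells, 24643 and 22619 in KD Ntn1 and 21277 and 22259 in KD Unc5b. The groups overlapped, and the empty vector held both the lowest and the highest library. The log2 fold change was -0.01 in KD Ntn1 (95% interval -0.30 to 0.29, limma adjusted p = 0.984) and -0.12 in KD Unc5b (95% interval -0.42 to 0.18, adjusted p = 0.602). Its sign in KD Ntn1 turned with median-of-ratios scaling and without empty vector library 2 or KD Ntn1 library 2, and in KD Unc5b without empty vector library 2.

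Among the β subunits other than β1 that pair with αv, Itgb3 rose in both knock-downs and Itgb5 fell in KD Ntn1, while Itgb6 passed in neither and Itgb8 was not tested. Itgb3 (ENSMUSG00000020689, chromosome 11, 104608000 to 104670476, plus strand), the β subunit of the vitronectin receptor αvβ3 and, in platelets, of αIIbβ3, was at 6 and 2 in empty vector cells, 221 and 205 in KD Ntn1 and 77 and 162 in KD Unc5b. These levels correspond to about 3 and 1 reads, 93 and 67 reads, and 36 and 70 reads. The empty vector was at or under the 3-read floor, and every knock-down library was far above it. Per read sequenced, Itgb3 was 50.6 times as frequent in KD Ntn1 as in the empty vector (95% exact interval 19.4 to 188, for counting error only) and 27.9 times in KD Unc5b (10.6 to 104). The tests gave limma adjusted p = 0.000369 and 0.0011, and both calls were kept in all 15 alternatives. The fitted log2 fold changes of 4.63 and 3.74 depend on the pseudocount. Except in the fit with no filter, Itgb3 was tested only because it was high in the knock-downs. The p-values given therefore describe its rise and add no support. KD Ntn1 and KD Unc5b did not differ by the test (log2 difference 0.90, 95% interval -0.02 to 1.82, adjusted p = 0.231). The platelet genes Itga2b, Gp9, Gp1bb, Pf4, Ppbp and Gp6, markers of the cell type best known for β3, summed to 280 to 302 in the empty vector, 365 to 409 in KD Ntn1 and 466 to 496 in KD Unc5b, mostly from Ppbp, with Gp6 at 0.

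Itgb5 (ENSMUSG00000022817, chromosome 16, 33829665 to 33949338, plus strand), the β subunit of the other vitronectin receptor αvβ5, was at 2563 and 4253 in empty vector cells, 1144 and 1147 in KD Ntn1 and 2206 and 1235 in KD Unc5b. Both empty vector libraries were above all 4 knock-down libraries, and KD Unc5b libraries lay 1.79-fold apart. It was 2.98-fold lower in KD Ntn1 (log2 fold change -1.52 ± 0.29 SE, limma adjusted p = 0.0106). KD Unc5b did not pass (log2 fold change -0.998, 95% interval -1.67 to -0.33, adjusted p = 0.0623), although it passed without empty vector library 1 (0.0128) or KD Unc5b library 1 (0.0311). The knock-downs did not differ by the test (log2 difference -0.53, 95% interval -1.19 to 0.14, adjusted p = 0.333). The KD Ntn1 call was lost without KD Ntn1 library 1 (0.0964) or 2 (0.0988), with no filter (0.0757) and with no variance trend (0.0565).

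Itgb6 (ENSMUSG00000026971, chromosome 2, 60598292 to 60722643, minus strand), the epithelial β subunit of αvβ6, which activates latent TGF-β, was at 1478 and 1413 in empty vector cells, 1206 and 1162 in KD Ntn1 and 977 and 1195 in KD Unc5b. The empty vector libraries were the highest, and the knock-downs overlapped each other. Neither comparison with the empty vector passed (log2 fold change -0.29, limma adjusted p = 0.2, in KD Ntn1 and -0.42, adjusted p = 0.0873, in KD Unc5b). Itgb8 (ENSMUSG00000025321, chromosome 12, 119158022 to 119238802, minus strand), whose product with αv also activates latent TGF-β, was at 4 and 14 in empty vector cells, 7 and 15 in KD Ntn1 and 2 and 0 in KD Unc5b. That is about 2 and 6, 3 and 5, and 1 and 0 reads, too few for a test, and the library with 0 reads allows a level of up to 6.95.

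**Figure D2:**
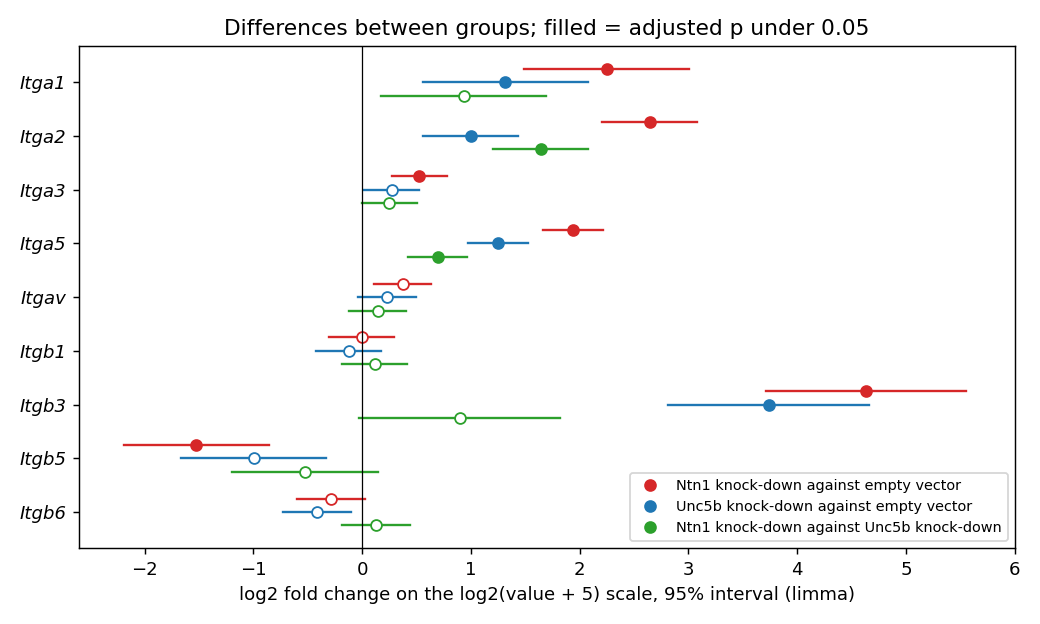
Log2 fold change of the 9 tested integrin genes on the log2(value + 5) scale with 95% intervals from limma, in 3 comparisons, with filled points at an adjusted p under 0.05. Itga2 lies at 2.64 in KD Ntn1 and 1.00 in KD Unc5b, Itgb5 at -1.52 and -0.998, and the Itgb1 intervals span 0.

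In 6 genes, Itga1, Itga2, Itga3, Itga5, Itgav and Itgb3, every empty vector library was below every KD Unc5b library and these below every KD Ntn1 library, an order found in 5.2% of all genes tested. In Itgb5 the order was the reverse, found in 4.59% of genes tested. Of the 6, the step between the knock-downs passed the test for Itga2 and Itga5 and for no other. An order of levels is therefore given as a description for Itga1, Itga3, Itgav and Itgb3.

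Levels per kb of summed exon length set the subunits in order. In the empty vector Itgb1 (5173 to 6517 per kb) stood above Itga3 (4728 to 4921), followed by Itgb5 (721.4 to 1197) and Itgav (818.3 to 950.2), which overlapped. Itgb6 (198.7 to 207.8), Itga2 (127.9 to 192.3), Itga5 (113.1 to 116.4) and Itga1 (4.41 to 9.19) came next, and Itgb8 and Itgb3 lay lowest and overlapped. In KD Ntn1 Itga3 (6477 to 7436 per kb) was above Itgb1 (5543 to 6038), and Itga2 (936.2 to 1035) had moved to the fourth place behind Itgav (1086 to 1205). Itga5 (433.2 to 454.5) was then above Itgb5 (322 to 322.8) and Itgb6 (163.4 to 169.6), and Itgb3 (34.7 to 37.5) overlapped Itga1 (27.1 to 36.4). KD Unc5b also had Itga3 (5821 to 5849) above Itgb1 (5214 to 5454), with Itgb5 (347.6 to 620.9) above Itga2 (287.4 to 344.2) and Itga5 (263.3 to 285). With the length of the longest coding transcript in place of all exons, Itgb5 and Itgav changed places in the empty vector, and Itgb3 and Itga1 in both knock-downs.

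**Figure D3:**
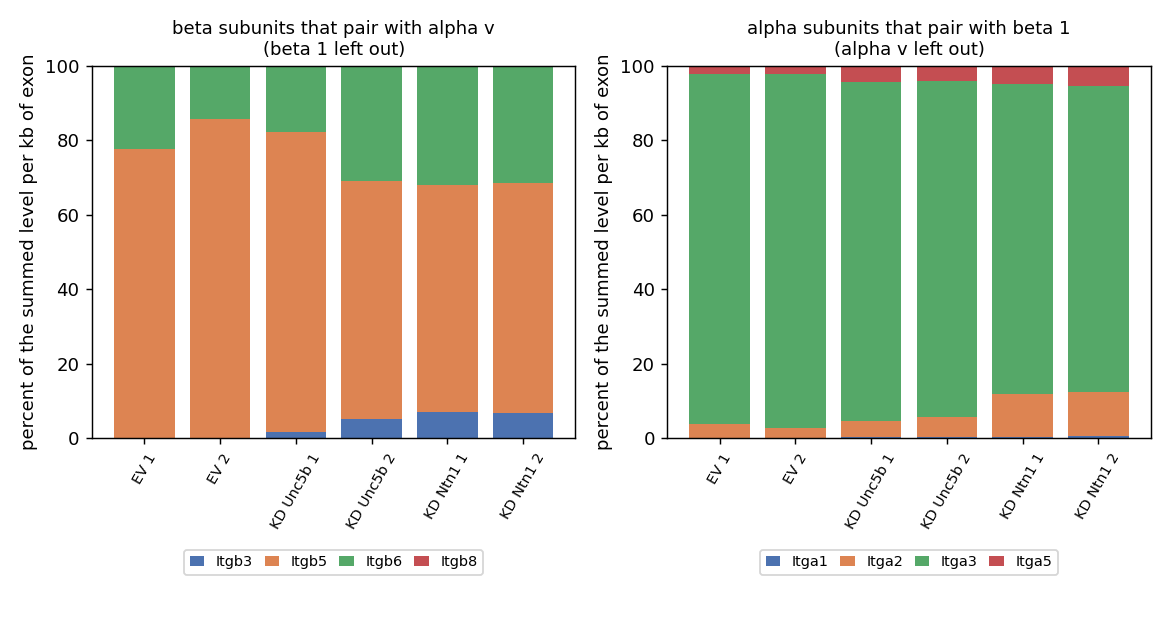
Percent of the summed level per kb of exon taken by each gene in the 6 libraries, for the β subunits that pair with αv other than β1 (left) and the α subunits that pair with β1 other than αv (right). Itga3 falls from 94.5% of the right-hand set in the empty vector to 82.6% in KD Ntn1, and Itgb3 reaches 7.07% of the left-hand set in KD Ntn1 library 1.

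The makeup of the subunit transcripts can be given as shares, which describe RNA and not receptors at the surface, and carry no test. One set was Itga1, Itga2, Itga3 and Itga5, the α subunits other than αv that pair with β1 among the integrins described. In it Itga3 made up 93.9% and 95.1% of the summed level per kb in the empty vector. It made up 83.1% and 82.2% in KD Ntn1 and 90.9% and 90.3% in KD Unc5b. Itga2 had 3.67% and 2.57%, 11.6% and 11.9%, and 4.47% and 5.34% in the same order. The share of Itga5 was 2.22% and 2.27%, 5.08% and 5.50%, and 4.43% and 4.08%. Within this set Itga3 was the main RNA in every library. The shares of Itga2 and Itga5 were larger in each knock-down library than in either empty vector library. With Itgav added to the set, Itga3 had 79.5% and 81.6%, 73.2% and 72.2%, and 78.3% and 77.8% in the same order. Itga6, which is outside the set, had group means of 856, 1443 and 1007 per kb, so these shares describe the set only. Among Itgb3, Itgb5, Itgb6 and Itgb8, Itgb5 had 77.5% and 85.7% in the empty vector, 60.8% and 61.8% in KD Ntn1 and 80.5% and 64.0% in KD Unc5b. Itgb6 had 22.3% and 14.2%, 32.0% and 31.3%, and 17.8% and 30.9%, and Itgb3 had 0.109% and 0.0243%, 7.07% and 6.65%, and 1.69% and 5.05%. The KD Unc5b libraries were unlike each other here, 1 close to the empty vector and 1 close to KD Ntn1 for Itgb5 and Itgb6. With the longest coding transcript as the length, the mean share of Itgb5 was 76.5%, 55.1% and 66.6% in the empty vector, KD Ntn1 and KD Unc5b.

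The genes most like Itgb3, Itga2 and Itga1, the 3 integrin genes with the largest log2 fold change in either comparison with the empty vector (in each case that in KD Ntn1), were named by Pearson's r of log2(value + 5) over the 6 libraries, among 11409 genes with a mean of at least 100, as a description over libraries that share the 3 groups. For Itgb3 they were Hmga2 (r = 0.9986), a chromatin protein gene, 4930597O21Rik (0.9973) and Gm29200 (0.9967), whose exons overlap Lama3. For Itga2 they were Fermt1 (0.9984), which encodes the integrin activator kindlin-1, Sema6a (0.9967), a semaphorin gene, and Ppard (0.9965), a nuclear receptor gene. For Itga1 they were Sfxn1 (0.995), Kdm6b (0.9949), a histone demethylase gene, and Tmem110 (0.9943). Such likeness was common: 276 genes had r of at least 0.95 with Itgb3, 187 with Itga2 and 163 with Itga1. Fermt1 was at 1272 and 1001 in empty vector cells, 2568 and 2458 in KD Ntn1 and 1494 and 1614 in KD Unc5b, groups that did not overlap.

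Of 17 other integrin subunits listed, 9 were tested. In KD Ntn1 2 rose and 1 fell, 33.3% against 15.1% of all genes tested (median log2 fold change 0.45, against -0.02), while in KD Unc5b limma called 0 against 12% of all genes tested (median -0.31, against 0.04), with 3 at an unadjusted p under 0.05. The hemidesmosome subunit Itga6 was at 8618 and 6832 in empty vector cells, 13720 and 12326 in KD Ntn1 and 8780 and 9402 in KD Unc5b. It was 1.69-fold higher in KD Ntn1 (limma adjusted p = 0.00739), a call lost without KD Ntn1 library 1 (0.102) or 2 (0.063). Its partner Itgb4 was at 4143 and 3759, 3850 and 4033, and 3433 and 2847, and did not pass in either knock-down (limma adjusted p = 0.994 and 0.128). The laminin receptor subunit Itga7 was 1.73-fold higher (adjusted p = 0.00964, lost without KD Ntn1 library 1 at 0.113 or 2 at 0.0928), and Itga8, an α partner of β1 known from mesenchymal cells, was 5.84-fold lower in KD Ntn1 (adjusted p = 0.00964, lost without library 1 at 0.0967 or 2 at 0.0654). In KD Unc5b Itga8 was at 107 and 35, against 204 and 199 in the empty vector, and was not called. Exons of Itga7 overlap another gene by 9 of 8092 bases and those of Itga8 by 372 of 7368, so reads from these bases are uncertain.

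Ligands in the matrix went both ways. Of 40 listed, 29 were tested, with 7 higher and 8 lower in KD Ntn1 (51.7% called, median log2 fold change 0.10) and 5 higher and 6 lower in KD Unc5b (37.9%, median -0.41), to be read, as for each list that follows, against 15.1% and 12% of all genes tested. Lama3, the α chain of laminin-332, a ligand of α3β1 and α6β4, was at 4294 and 3011 in empty vector cells, 21692 and 19212 in KD Ntn1 and 11477 and 13355 in KD Unc5b. It rose 5.60-fold and 3.40-fold (limma adjusted p = 0.000203 and 0.000658). The fibrillin gene Fbn1, whose product binds αv integrins and α5β1, fell 7.23-fold in KD Ntn1 and 6.50-fold in KD Unc5b (adjusted p = 0.000126 and 0.000252). The thrombospondin gene Thbs1 fell 3.11-fold in KD Unc5b (adjusted p = 0.000885). In KD Ntn1 Thbs1 was at 41076 and 42855, against 74400 and 92876 in the empty vector. The calls of Lama3, Fbn1 and Thbs1 given above held without each library in turn. That of Tgfbi, 4.41-fold lower in KD Ntn1 (adjusted p = 0.00383), was lost without KD Ntn1 library 1 or 2. In KD Unc5b Tgfbi was at 449 and 236, against 698 and 1098 in the empty vector. Tnc, which encodes tenascin-C, was at 12 and 18 in empty vector cells, 50 and 70 in KD Ntn1 and 126 and 188 in KD Unc5b. The rise in KD Unc5b was 10.5-fold (adjusted p = 0.00136). Like Itgb3, Tnc reached the mean of 20 only through the knock-downs, so its place among the tested genes depended on its difference. Exons of Lama3 overlap another gene by 197 of 10745 bases, and those of Fbn1 by 2442 of 12128. The overlap is 176 of 7772 bases for Tnc and 208 of 6073 for Thbs1, so reads from these bases are uncertain too.

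**Figure D4:**
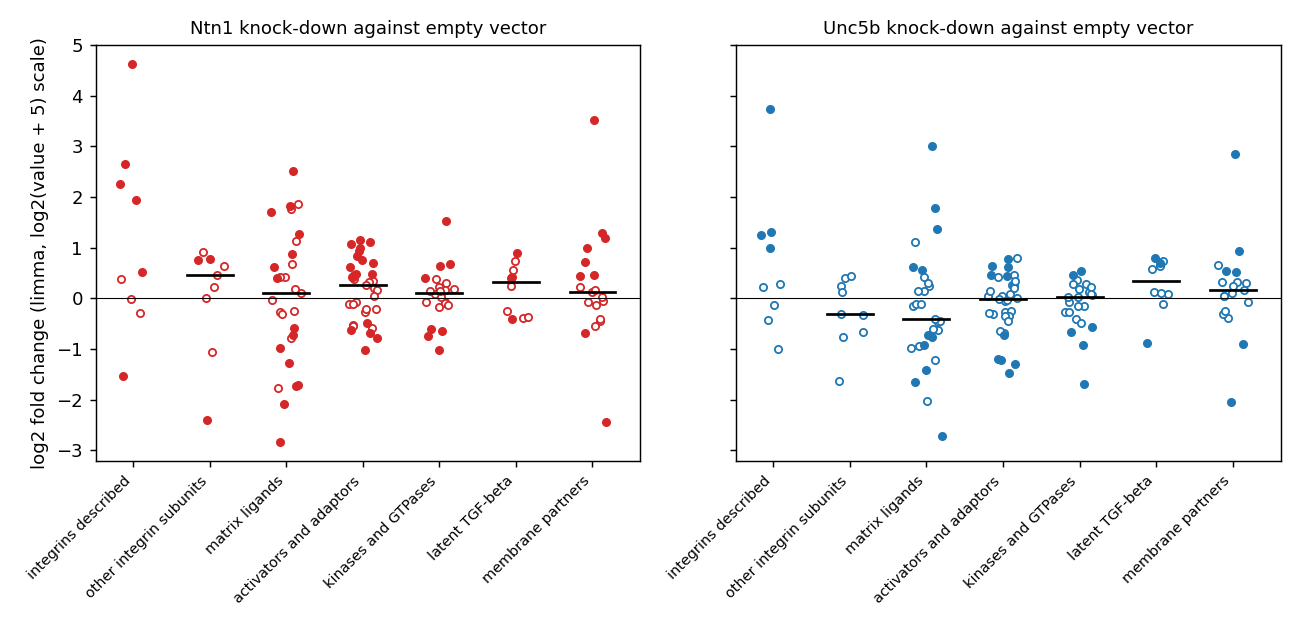
Log2 fold change of each tested gene of the integrin lists in KD Ntn1 (left) and KD Unc5b (right) against the empty vector, with filled points at an adjusted p under 0.05 and black bars at the median of each list other than the integrins described. The medians lie between 0.10 and 0.45 in KD Ntn1 and between -0.41 and 0.35 in KD Unc5b.

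Among intracellular activators and focal adhesion adaptors, 35 of 39 were tested, with 13 higher and 5 lower in KD Ntn1 (51.4% called, median 0.26) and 5 higher and 5 lower in KD Unc5b (28.6%, median -0.01). Fermt1 rose 2.21-fold in KD Ntn1 (log2 fold change 1.15 ± 0.14 SE, limma adjusted p = 0.00151), and did not pass in KD Unc5b (adjusted p = 0.0733). The knock-downs differed in Fermt1 (log2 difference 0.69, adjusted p = 0.025), a call lost without KD Ntn1 library 1 (0.249) or 2 (0.203) or KD Unc5b library 1 (0.133) or 2 (0.0974). The adaptor gene Tns4 was at 5829 and 4980 in empty vector cells, 11425 and 11733 in KD Ntn1 and 9445 and 7217 in KD Unc5b. It was 2.14-fold higher in KD Ntn1 (adjusted p = 0.00213). Lims1, which encodes PINCH1, the partner of integrin-linked kinase, was at 2602 and 3043 in empty vector cells, 3362 and 3364 in KD Ntn1 and 1203 and 1072 in KD Unc5b. The KD Unc5b libraries were low, by 2.48-fold (adjusted p = 0.000653), and the knock-downs differed (log2 difference 1.56, adjusted p = 0.000879). The calls against the empty vector of these 3 genes, and the difference of Lims1 between the knock-downs, held without each library in turn. Also called lower were Kank1, by 2.05-fold, and Actn4, by 1.72-fold, in KD Ntn1 (limma adjusted p = 0.00563 and 0.00245). In KD Unc5b Kank1 was at 635 and 526, against 1177 and 1500 in the empty vector. Actn4 was at 7241 and 6937 in KD Unc5b, against 8221 and 9066. Tns1 was 2.96-fold lower in KD Unc5b (adjusted p = 0.0192). The calls of Kank1, Actn4 and Tns1 were each lost without at least 1 library.

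Of 24 kinases and small GTPase regulators, 23 were tested, with 4 higher and 4 lower in KD Ntn1 (34.8% called, median 0.11) and 2 higher and 4 lower in KD Unc5b (26.1%, median 0.03). The Src family gene Yes1 was at 3447 and 3770 in empty vector cells, 2440 and 2327 in KD Ntn1 and 1141 and 1096 in KD Unc5b, a 3.23-fold fall in the latter (limma adjusted p = 0.000252). It was lower in KD Unc5b than in KD Ntn1 (log2 difference 1.09, adjusted p = 0.00182), a call that was lost without KD Ntn1 library 1 (0.0651) or 2 (0.0591). Vav2, an exchange factor for small GTPases, fell 2.03-fold in KD Ntn1 (adjusted p = 0.00109). In KD Unc5b Vav2 was at 1674 and 1658, against 2508 and 2815 in the empty vector. Another Src family gene, Fyn, was at 212 and 368 in empty vector cells, 782 and 847 in KD Ntn1 and 212 and 206 in KD Unc5b, a 2.81-fold rise in KD Ntn1 (adjusted p = 0.00538) that was lost without KD Ntn1 library 1 (0.0611) or 2 (0.0734). The calls of Yes1 and Vav2 against the empty vector held without each library in turn, and exons of Yes1 overlap Gm10461.

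The list of latent TGF-β genes held genes of the cytokines, of their latent complexes and of the receptors (Tgfbr1, Tgfbr2 and Tgfbr3). Of its 12 genes 10 were tested, with 2 higher and 1 lower in each knock-down (30.0% called, median 0.31 in KD Ntn1 and 0.35 in KD Unc5b). The receptor gene Tgfbr1 was at 1720 and 1699 in empty vector cells, 2207 and 2284 in KD Ntn1 and 2785 and 2735 in KD Unc5b. Its rise of 1.62-fold in KD Unc5b (limma adjusted p = 0.00503) held without each library in turn, and that of 1.31-fold in KD Ntn1 (adjusted p = 0.0409) was lost without any 1 of the 6 libraries, with adjusted p from 0.054 to 0.27. Tgfb1, the cytokine itself, rose 1.84-fold in KD Ntn1 (adjusted p = 0.0148), lost without KD Ntn1 library 1 or 2. In KD Unc5b Tgfb1 was at 1195 and 982, against 821 and 581 in the empty vector. The genes called lower were Ltbp1, by 1.33-fold in KD Ntn1, and Tgfb3, by 1.855-fold in KD Unc5b (limma adjusted p = 0.0475 and 0.0353). Both of these calls were lost without at least 1 library.

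All 19 membrane partners were tested, with 7 higher and 2 lower in KD Ntn1 (47.4% called, median 0.12) and 4 higher and 2 lower in KD Unc5b (31.6%, median 0.16). The tetraspanin gene Cd81 was at 92 and 242 in empty vector cells, 1783 and 1743 in KD Ntn1 and 1257 and 973 in KD Unc5b. It rose 10.6-fold and 6.68-fold (limma adjusted p = 0.000771 and 0.00247), held without each library in turn, and shares exon bases with R74862. Plaur, which encodes the urokinase receptor, a known lateral partner of integrins, was 2.38-fold higher in KD Ntn1 (adjusted p = 0.00569), a call lost without KD Ntn1 library 1 (0.0678) or 2 (0.0739). Tspan8 was at 49 and 105 in empty vector cells, 7 and 12 in KD Ntn1 and 24 and 7 in KD Unc5b. It fell 8.1-fold and 4.97-fold (limma adjusted p = 0.01996 and 0.04585). Its place among the tested genes depended on its level in the empty vector. Cav1 fell 1.62-fold in KD Ntn1 and Adam9 1.86-fold in KD Unc5b (limma adjusted p = 0.0333 and 0.0093). The calls of Tspan8, Cav1 and Adam9 were each lost without at least 1 library. Between the knock-downs 7.1% of all genes tested were called. In that comparison the genes higher and lower in KD Ntn1 were 2 and 0 of the other subunits and 4 and 2 of the matrix ligands. They were 6 and 1 of the activators and adaptors, 4 and 1 of the kinases and regulators, 0 and 1 of the latent TGF-β genes, and 1 and 1 of the membrane partners.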

How the data were processed

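The deposited table was treated as a score: the authors' values are whole numbers with library sums near 20 M in all 6 libraries, and so are scaled and rounded rather than raw counts. STAR, Picard and HTSeq and the build GRCm38 (mm10) are named per the submitters' processing notes, without versions. Not given in the sources used here are the annotation, the scaling and the settings for counting, strand and duplicates. Without a known strand setting, reads of overlapping genes on opposite strands cannot be told apart.

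Gene positions came from GENCODE M21, where 49326 of the 49671 identifiers were found. Values of up to 150 were multiples of 1 step per library within 0.5, from which the reads per library were estimated. The step is an estimate, which is why no count model was used. The scale was log2(value + 5) for 15330 genes with a mean of at least 20, in a linear model of the 3 groups fitted by limma 3.58.1 (R 4.3.3) using a variance trend (3 residual and 5.33 prior degrees of freedom). Tests were 2-sided, p-values were Benjamini-Hochberg adjusted over all genes tested in a comparison, and a call meant an adjusted p under 0.05. Fold values are ratios of group means as deposited. The fitting code was tested on simulated data.

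The integrin genes and gene lists were chosen with earlier results of these data known. All 10 integrin genes were named, and from each list up to 2 called genes with the largest rise and 2 with the largest fall per comparison with the empty vector could be named. Alternatives covered the pseudocount, the filter, scaling, the variance trend, the groups in the fit, the replicate numbers as a block and leaving out each library. The design provided for raw counts or scaled values, and its option for scaled values was taken. Proteins and a promoter window for Itgb3 were not used here, and some items, an allele that all groups share among them, are not reported here.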

Additional observations from a re-analysis of the deposited data

Results flagged for a closer look

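Itga2 and Itga5 differed between the knock-downs by the direct test within the 6-library fit, which is what marked them for a closer look. The log2 difference of KD Ntn1 from KD Unc5b was 1.64 for Itga2 (limma adjusted p = 0.003) and 0.69 for Itga5 (adjusted p = 0.0137). Both calls were lost without KD Ntn1 library 1 (adjusted p = 0.0761 for Itga2 and 0.202 for Itga5) or library 2 (0.0638 and 0.161), and that of Itga5 also without KD Unc5b library 1 (0.06) or 2 (0.0936). In both genes all libraries of KD Ntn1 were above all libraries of KD Unc5b.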

How the results depend on the processing

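Of the 12 calls of integrin genes, 5 held without each library in turn, those of Itga5 and Itgb3 in both knock-downs and of Itga2 in KD Ntn1. Itgb3 was among the tested genes only through the knock-downs, in which it was high, so its kept calls are a description. The lone library left in a group was assumed to vary like the other groups. Over the leave-one-out fits the called genes ranged from 509 to 2819 in KD Ntn1 (2314 as reported), 669 to 2437 in KD Unc5b (1835) and 33 to 1884 between the knock-downs (1088), and the called integrin genes from 3 to 7 (6), 2 to 5 (4) and 0 to 3 (2). Without KD Ntn1 library 1 the genes called were 509, 978 and 33, without its library 2 540, 971 and 52. Without KD Unc5b library 1 they were 992 in KD Unc5b and 322 between the knock-downs, without its library 2 669 and 337, and between the knock-downs 1837 and 1884 without empty vector library 1 or 2. In the same order of comparisons, no filter gave 1289, 791 and 302 genes, and no variance trend gave 1462, 1115 and 454. A fit of the compared groups only gave 959 in KD Unc5b and 1917 between the knock-downs. In KD Ntn1 no filter and no variance trend each left 4 integrin calls, 4 higher and 0 lower, without Itga3 and Itgb5. In KD Unc5b no filter and no variance trend each left 2 integrin calls, and between the knock-downs no variance trend left 1.

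With the replicate number as a block the genes called were 1465, 1102 and 459 and the integrin calls 6, 3 and 2. The libraries share only a number: deviations of same-numbered libraries correlated at 0.16 (empty vector and KD Ntn1), -0.45 (empty vector and KD Unc5b) and -0.17 (both knock-downs). Chosen after seeing the data, a block with KD Unc5b numbers crossed gave 4151, 3585 and 2617 genes and 7, 6 and 4 integrin calls.

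Reversed signs were found for values near 0 only. For Itgb1, KD Ntn1 reached 0.0118 under median-of-ratios scaling and ranged from -0.1718 to 0.1615 over the leave-one-out fits, above 0 without empty vector library 2 or KD Ntn1 library 2. In KD Unc5b Itgb1 ranged from -0.2893 to 0.04397, above 0 without empty vector library 2. Itgb6 between the knock-downs ranged from -0.01353 to 0.2757, below 0 without KD Unc5b library 1. The causes were not tested. Scaling moved the median of all genes by under 0.1 (log2). With 2 libraries a group and 6.54 to 10.18 M reads, Itgb8 was too low to compare.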
